A study of Mus musculus with 12 samples.

Results

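The genes described here are the collagens, laminins, matrix metalloproteinases and tissue inhibitors of metalloproteinases of mouse liver. They were taken by gene symbol from the platform's annotation (Col, Lam, Mmp and Timp symbols followed by their chain or member numbers), and each gene was read from its brightest probe set over the 12 arrays. This gave 72 of 18194 genes: 42 collagens, 10 laminins, 16 matrix metalloproteinases and 4 inhibitors. The collagens comprised 11 fibrillar chains, 6 basement membrane (type IV) chains, 5 type VI chains, 2 multiplexins and 18 others. The 12 arrays formed 4 groups of 3: LG2KO refed, control refed, LG2KO fasted and control fasted. Each array carried RNA pooled from 3 animals of a mixed SV129XC57Bl/6 background. With all arrays n = 3 pools per group, and p-values reflect the spread between pools. In a fit that leaves out an array its group has 2 pools.

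LG2KO is not spelled out in the labels and was taken to mean loss of the glucose transporter gene Slc2a2 (Glut2) in liver. All LG2KO pools are labelled as tamoxifen treated and no control pool is, so that genotype and the tamoxifen label cannot be told apart. For the LG2KO fasted arrays 1 label names both feeding states, whereas title and diet give fasting alone, which was followed. The promoter that drives the recombinase, the age and sex of the animals and the time of refeeding are not given in the labels. Slc2a2 stood at 3.79, 3.64 and 3.80 log2 units in the LG2KO refed pools, against 10.67, 11.30 and 10.90 in the control refed pools. It stood at 4.02, 4.13 and 3.56 in the LG2KO fasted pools, against 10.002, 11.083 and 10.822 in the control fasted pools, so every array fitted its genotype label. The 8 hepatocyte markers measured averaged between 13.18 and 13.52 log2 units on all arrays.

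Arrays of 1 group correlated at 0.984 to 0.996 across probe sets. Control refed replicate 1 and LG2KO fasted replicate 3 stood apart on the second principal component of the genes above the median level, at 37.1 and -31.4. Without this pair the lowest correlation was 0.994. A further array, control fasted replicate 3, had a summed level of 2379 for 8 exocrine pancreas markers, against 643.2 to 956.0 on the other arrays. Results are given with all arrays, and counts and calls that differ are also given without the arrays concerned.

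Liver matrix is sparse compared with that of other organs and lies in portal tracts, around vessels and in the space between sinusoids and hepatocytes. Stellate cells, portal fibroblasts and endothelium make most of the fibrillar and basement membrane collagens, while hepatocytes make collagen XVIII. Collagen chains fold as trimers in the endoplasmic reticulum with the help of hydroxylases and chaperones, and metalloproteinases degrade matrix outside the cell under the control of the inhibitors of the Timp family. RNA of whole liver was measured, so fewer cells of a type and less RNA per cell cannot be told apart.

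Refeeding was the condition in which single matrix genes moved. In LG2KO livers 3 of the 72 genes rose with refeeding (Col27a1, Col4a1 and Col4a2) and 0 fell, at a Benjamini-Hochberg adjusted p below 0.05 in the limma fit over all genes. This was 4.17% of the members, beside 7.05% of all genes. In control livers 3 rose (Col27a1, Mmp19 and Col15a1) and 1 fell (Col18a1), which was 5.56% of the members beside 6.46% of all genes. Both shares lay below those of all genes, so matrix genes as a class were not called more often than other genes. Of the 72 members 44 had a mean level below the median of all genes. In a fit of only the genes above it 5 of 28 members passed in LG2KO livers, beside 1634 genes in all. In control livers 4 of the 28 passed in that fit, beside 1474 genes in all. As that fit tests fewer genes than the full fit, these counts are not read as an excess of brighter members. The median log2 fold change of the members was 0.07 in LG2KO livers and 0.05 in control livers, beside 0.01 and -0.01 for all genes.

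Between genotypes 0 of the 72 genes passed. In refed livers 0.379% of all genes passed, and 5 members had an unadjusted p below 0.05, or 6.94% of the members beside 9.13% of all genes. In fasted livers 0.396% of all genes passed, and 5 members (6.94%) were below an unadjusted 0.05, beside 5.2% of all genes. For the genotype difference averaged over both feeding states 1.02% of all genes passed and 8 members (11.1%) were below an unadjusted 0.05, beside 8.86% of all genes. The interaction, which asks whether refeeding acted differently in the 2 genotypes, passed for 0.0055% of all genes and for 0 members, with 4 members (5.56%) at an unadjusted p below 0.05, beside 4.73% of all genes. No difference between the genotypes' refeeding responses described below passed this test.

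**Figure D1:**
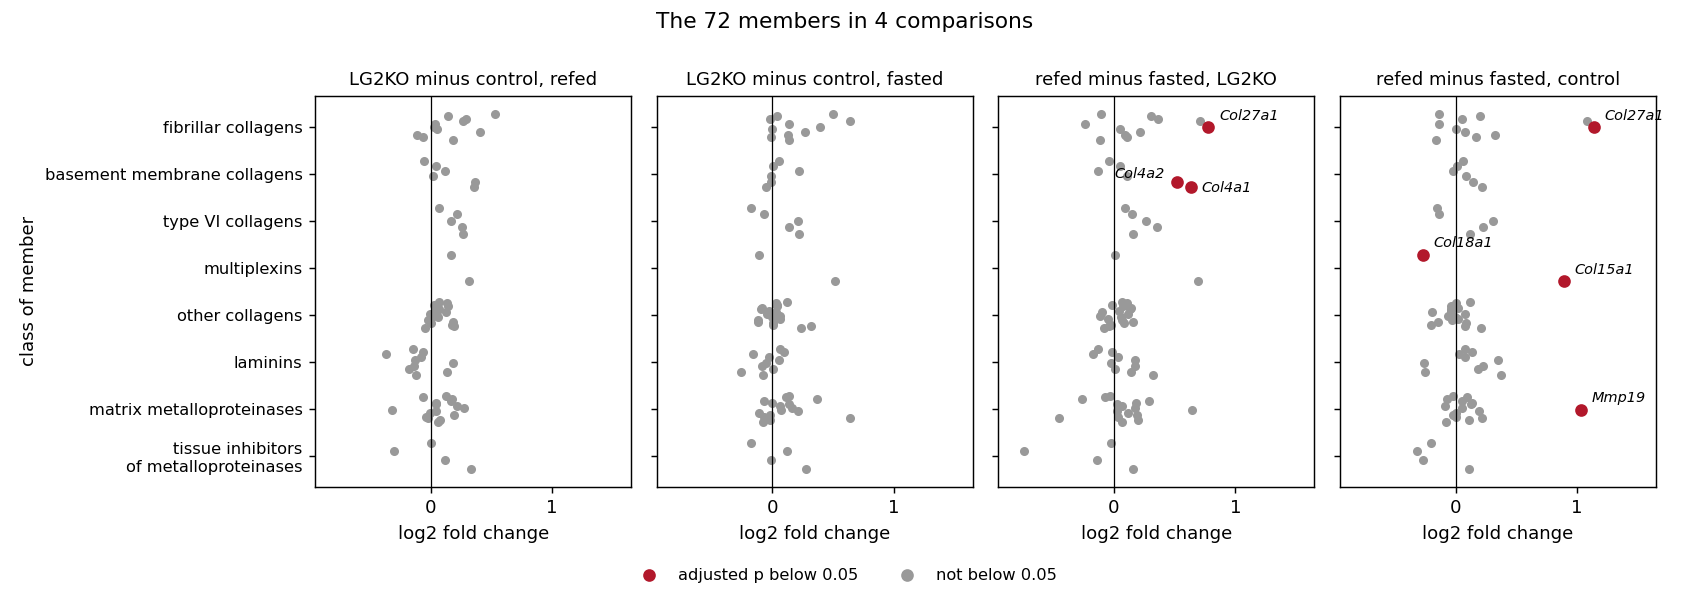
Log2 fold change (x axis, log2 units) of each of the 72 genes in 4 comparisons, arranged by class (y axis), with each point 1 gene. Red points have an adjusted p below 0.05. Named red points appear in the refeeding panels and none in the genotype panels.

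Without control refed replicate 1 and LG2KO fasted replicate 3 the counts of members grew with those of all genes. Control refed and LG2KO fasted had 2 pools each in this fit. In LG2KO livers 5 members then rose with refeeding (Col5a1 and Col15a1 in addition) and 2 fell (Timp3 and Mmp12), or 9.72% beside 17.5% of all genes. In control livers 5 rose (Lama1 and Lamb1 in addition) and 1 fell, or 8.33% beside 12.1%. Between genotypes 0 passed in refed livers, where 0.286% of all genes did. In fasted livers 1 member, Mmp12, passed beside 0.511% of all genes, and it also passed in the average over feeding states beside 1.29%. The interaction again gave 0 members, beside 0.0055% of all genes.

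Refed and fasted pools did not overlap for 14 members in LG2KO livers and for 12 in control livers, or 19.4% and 16.7% of the members, beside 22.5% and 20.5% of all genes. LG2KO and control pools did not overlap for 9 members (12.5%) in refed livers and for 5 (6.94%) in fasted livers, beside 15.4% and 10.8% of all genes.

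Among the fibrillar collagens Col27a1, whose product is a thin-fibril collagen best known from cartilage, rose with refeeding in both genotypes. It stood at 8.10, 8.35 and 8.27 log2 units in the LG2KO refed pools, against 7.42, 7.62 and 7.34 in the LG2KO fasted pools. In the control refed pools it stood at 8.17, 8.22 and 8.23, against 6.81, 7.04 and 7.36 in the control fasted pools. All 6 refed pools lay above all 6 fasted pools. The log2 fold change was 0.78 ± 0.14 (SE) in LG2KO livers (adjusted p = 0.00542), a 1.72-fold rise, and 1.14 ± 0.14 in control livers (adjusted p = 0.000375), a 2.20-fold rise. A second probe set of the gene, tested in a fit of all probe sets, rose by 0.91 in LG2KO livers (adjusted p = 0.00745) and by 1.77 in control livers (adjusted p = 6.16e-05). In the fasted state LG2KO minus control was 0.39 ± 0.14 (adjusted p = 0.671), and the interaction was -0.36 ± 0.20 (adjusted p = 0.99).

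**Figure D2:**
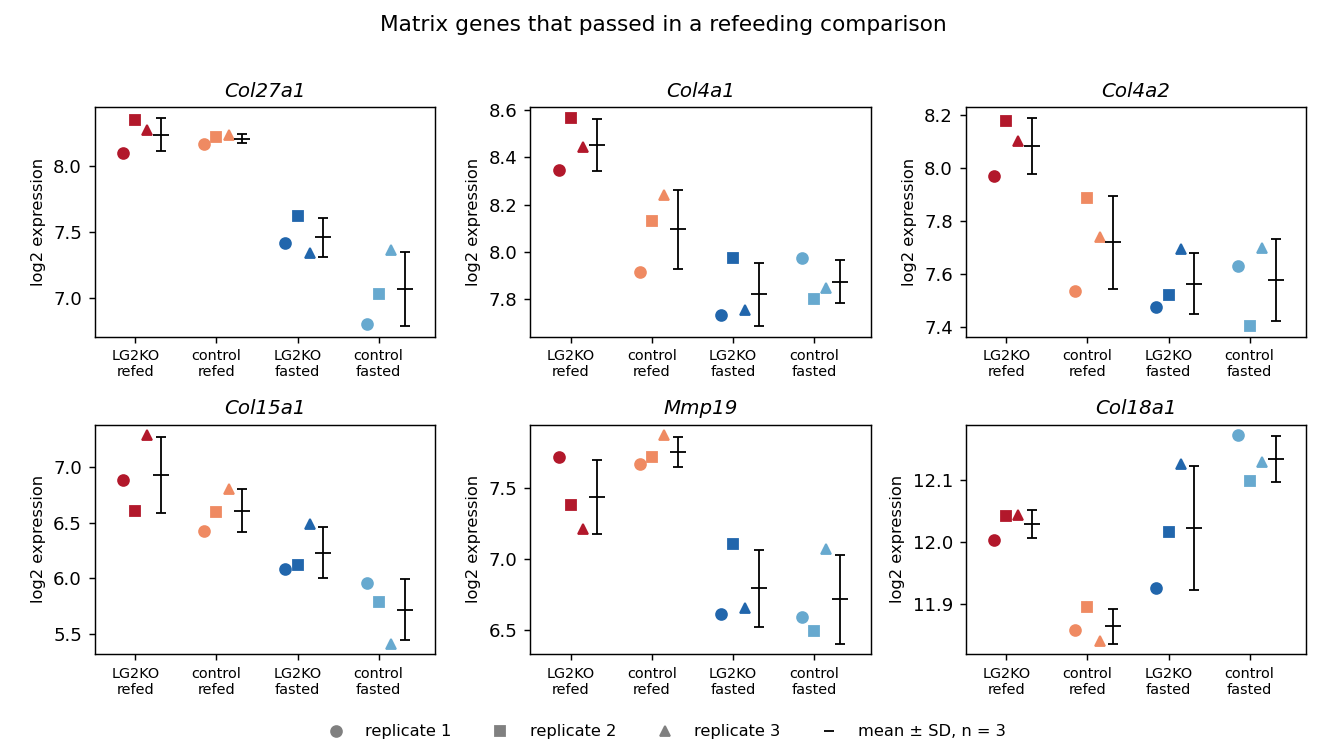
Log2 expression (y axis) of the 6 genes that passed in a refeeding comparison, for each pool of the 4 groups (x axis), with the mean and SD of 3 pools as black bars. For Col27a1 all refed pools lie above all fasted pools, and for Col4a1 and Col4a2 the LG2KO refed pools lie above every other pool.

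The window around the start of Col27a1 is printed because it is the member that rose in both genotypes. It covers 250 bases before and 50 bases after the annotated start (RefSeq, mouse build GRCm38.p6, chr4:63215162-63215461, plus strand), in lower case and with no base marked. It holds 2 GC boxes (GGGCGG on either strand) and none of the other motifs counted for the type IV pair.
Col27a1: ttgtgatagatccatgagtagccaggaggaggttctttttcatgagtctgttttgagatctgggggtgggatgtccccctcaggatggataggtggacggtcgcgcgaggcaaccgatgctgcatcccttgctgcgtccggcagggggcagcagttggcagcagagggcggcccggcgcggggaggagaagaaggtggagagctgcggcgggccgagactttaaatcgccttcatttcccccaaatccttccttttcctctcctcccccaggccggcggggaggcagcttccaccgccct

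The other fibrillar chains did not pass in any comparison of all 12 arrays. Col3a1, the chain of type III collagen in loose fibrils of the liver, had the widest spread. It stood at 8.80, 8.79 and 9.24 in the LG2KO refed pools and 9.27, 8.29 and 8.48 in the control refed pools. In the fasted state it stood at 8.98, 8.22 and 7.50 in the LG2KO pools and 7.07, 6.87 and 8.85 in the control pools. Control fasted replicates 1 and 2 were the lowest of all arrays, and replicate 3 of that group lay in the range of the refed pools. Refeeding in controls gave 1.08 ± 0.48 (adjusted p = 0.273) with all arrays and 1.71 (adjusted p = 0.026) without control fasted replicate 3, the array with the high exocrine pancreas markers, whose part in this result was not tested beyond leaving it out. A dim second probe set of Col3a1 was at 0.23 in the same comparison (adjusted p = 0.739).

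Col1a2, a chain of type I collagen, followed the same order of arrays in the fasted state. It stood at 8.32, 8.04 and 7.72 in the LG2KO fasted pools, against 7.62, 7.44 and 8.22 in the control fasted pools. In the refed state it stood at 8.14, 8.13 and 8.46 in LG2KO pools, against 8.06, 7.67 and 7.77 in control pools. Its refeeding fold change was 0.07 ± 0.21 in control livers (adjusted p = 0.936). Over the 6 fasted pools Col1a2 and Col3a1 correlated with a Pearson r of 0.994 and a Spearman rho of 1 (exact permutation test, two-sided, p = 0.00278 for each, the smallest that 6 pools allow, and 0.0222 after adjustment over 8 relations). The 6 pools of a feeding state came from both genotypes and group means were not removed, so differences between genotypes enter r. Without the 2 pools farthest from the median of Col1a2, r was 0.995. In the refed pools r was 0.834 (exact permutation p = 0.0528, adjusted p = 0.0844). The other chain of type I collagen, Col1a1, did not share this pattern: with Col1a2 it had an r of 0.381 in the fasted pools (exact permutation p = 0.514, adjusted p = 0.685). Its refeeding fold change in control livers was 0.33 ± 0.12 (adjusted p = 0.177).

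Col5a1, a type V chain that helps start fibrils, stood at 6.81, 6.81 and 7.02 in the LG2KO refed pools, against 6.52, 6.40 and 6.63 in the LG2KO fasted pools. The groups did not overlap, and the fold change was 0.36 ± 0.13 (adjusted p = 0.134), or 0.42 ± 0.13 (adjusted p = 0.0465) without the 2 arrays that stand apart. In controls it was 0.05 ± 0.13 (adjusted p = 0.925). Col5a3, another type V chain, had the largest positive genotype difference of the members in refed livers, 0.53 ± 0.29 (adjusted p = 0.647). It stood at 6.83, 6.00 and 6.05 in LG2KO refed pools and 5.59, 5.69 and 6.01 in control refed pools, where the groups overlap. Col5a2 was at 0.14 ± 0.19 in the same comparison (adjusted p = 0.871). In the fasted state the largest positive differences were those of Col3a1, 0.64 ± 0.48 (adjusted p = 1), and of Mmp12, 0.64. For Col3a1 the value ranged between 0.27 (without LG2KO fasted replicate 1) and 1.27 (without control fasted replicate 3) when single arrays were left out. It was 0.33 with the mean of its probe sets and 1.01 (adjusted p = 0.387) without the 2 arrays that stand apart.

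**Figure D3:**
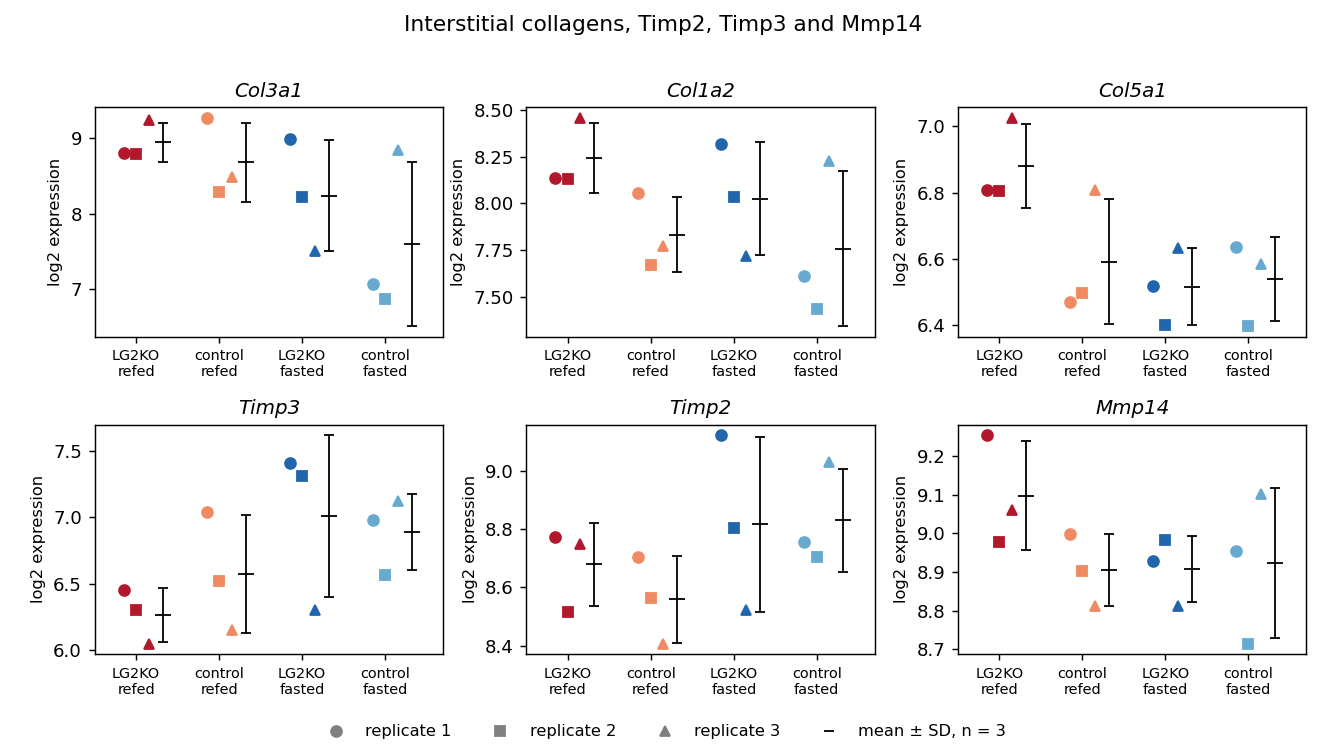
Log2 expression (y axis) of 3 fibrillar collagen genes, Timp3 and the members Timp2 and Mmp14, for each pool of the 4 groups (x axis), with the mean and SD of 3 pools as black bars. In Col3a1 and Col1a2, control fasted replicate 3 (triangle) lies well above the other control fasted pools, and in Timp3, LG2KO fasted replicate 3 lies well below the other LG2KO fasted pools.

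Of the 6 type IV collagen genes, Col4a1 and Col4a2, which encode the chains of the type IV trimer found in most basement membranes, rose with refeeding in LG2KO livers. Col4a1 stood at 8.35, 8.57 and 8.45 in the LG2KO refed pools, against 7.73, 7.98 and 7.75 in the LG2KO fasted pools. In the control refed pools it stood at 7.91, 8.13 and 8.24, against 7.98, 7.80 and 7.85 in the control fasted pools. The LG2KO refed pools were above every other pool, and control refed pools overlapped with control fasted pools. Refeeding gave 0.63 ± 0.12 in LG2KO livers (adjusted p = 0.00633), a 1.55-fold rise, and 0.22 ± 0.12 in control livers (adjusted p = 0.406). The interaction was 0.41 ± 0.17 (adjusted p = 0.99, unadjusted p = 0.0287), so a difference between the genotypes in this response was not established. A second probe set gave 0.40 in LG2KO livers (adjusted p = 0.0595) and -0.08 in control livers.

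Col4a2 stood at 7.97, 8.18 and 8.10 in the LG2KO refed pools, against 7.48, 7.52 and 7.69 in the LG2KO fasted pools. In the control refed pools it stood at 7.54, 7.88 and 7.74, against 7.63, 7.40 and 7.70 in the control fasted pools. As for Col4a1, the LG2KO refed pools lay above all others. Refeeding gave 0.52 ± 0.13 in LG2KO livers (adjusted p = 0.0255), a 1.43-fold rise, and 0.14 ± 0.13 in control livers (adjusted p = 0.701), with an interaction of 0.38 ± 0.18 (adjusted p = 0.99). The rise no longer passed without LG2KO refed replicate 2 (0.47, adjusted p = 0.109), LG2KO refed replicate 3 (0.51, adjusted p = 0.0912), LG2KO fasted replicate 1 (0.48, adjusted p = 0.104) or LG2KO fasted replicate 2 (0.50, adjusted p = 0.0909), nor with the arrays centred on the brighter genes (0.51, adjusted p = 0.0647). In refed livers LG2KO minus control was 0.36 ± 0.12 for Col4a1 (adjusted p = 0.314) and 0.36 ± 0.13 for Col4a2 (adjusted p = 0.35), and in fasted livers it was -0.05 ± 0.12 and -0.01 ± 0.13. These comparisons share the LG2KO refed pools with the refeeding comparison. Over the 6 refed pools of both genotypes Col4a1 and Col4a2 had a Pearson r of 0.939. Its exact permutation p was 0.0139, and 0.0556 after adjustment over 8 relations. Over the 6 fasted pools r was 0.122 (exact permutation p = 0.767, adjusted p = 0.875). Group means were not removed, so differences between genotypes enter r. The other 4 type IV genes, Col4a3, Col4a4, Col4a5 and Col4a6, had refeeding fold changes between -0.13 and 0.11 in LG2KO livers and between -0.02 and 0.08 in control livers.

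**Figure D4:**
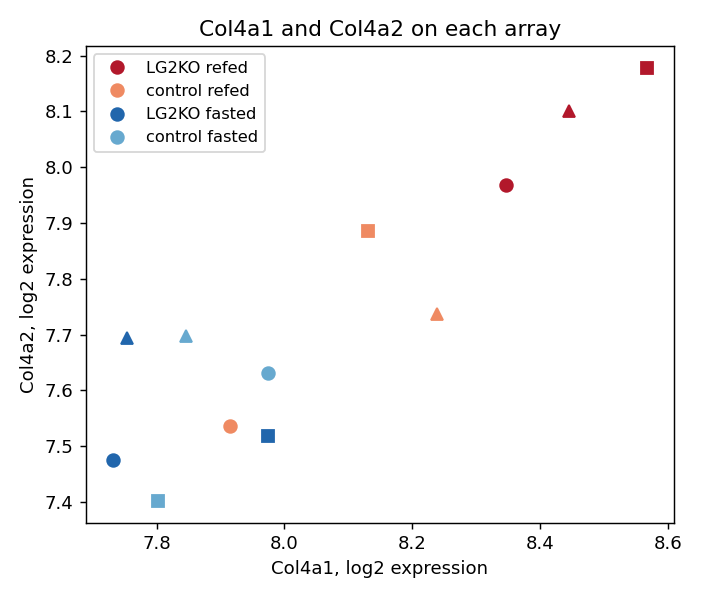
Log2 expression of Col4a2 (y axis) against that of Col4a1 (x axis) on each of the 12 arrays, coloured by group, with circles, squares and triangles for replicates 1, 2 and 3. The 3 LG2KO refed arrays are highest for both genes, from 8.35 for Col4a1 and from 7.97 for Col4a2.

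Col4a1 and Col4a2 lie head to head, and their windows are printed because these genes were called together and the windows overlap. In RefSeq (GRCm38.p6) the window of Col4a1 is chr8:11312777-11313076 on the minus strand and that of Col4a2 is chr8:11312555-11312854 on the plus strand, with starts 21 bases apart. Capitals mark the 78 bases that both windows hold, each read on its own strand. This stretch spans both annotated starts and reaches past each into transcribed sequence.
Col4a1: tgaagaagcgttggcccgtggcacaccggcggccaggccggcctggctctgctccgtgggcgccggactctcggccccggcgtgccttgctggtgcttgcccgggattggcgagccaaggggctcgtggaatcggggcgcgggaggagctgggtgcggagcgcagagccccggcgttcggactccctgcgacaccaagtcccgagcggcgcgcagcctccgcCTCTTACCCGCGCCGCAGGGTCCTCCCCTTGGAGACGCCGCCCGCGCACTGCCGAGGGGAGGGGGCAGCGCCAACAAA
Col4a2: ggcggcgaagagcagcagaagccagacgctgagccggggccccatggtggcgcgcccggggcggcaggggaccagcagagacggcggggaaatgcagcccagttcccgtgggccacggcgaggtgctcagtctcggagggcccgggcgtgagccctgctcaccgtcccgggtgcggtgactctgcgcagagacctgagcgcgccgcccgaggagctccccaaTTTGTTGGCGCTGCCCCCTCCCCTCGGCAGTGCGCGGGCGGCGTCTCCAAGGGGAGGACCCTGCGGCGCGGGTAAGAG

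The G and C content was 74.0% in the Col4a1 window and 73.7% in that of Col4a2, beside a median of 52.67% over all windows. Col4a1 had 1 GC box and Col4a2 had 3, and each had 1 CCAAT. Of the 72 members 53 had at least 1 window, 60 in all. These 60 windows had a median G and C content of 58.83%, above the 52.67% of all windows. The part of base composition in the motif shares below was not tested. GGGCGG was in 53.33% of these 60 windows, against 35.66% of all 32851 windows. CCAAT was in 33.33% against 37.41%, TATAAA in 20% against 13.62%, and CACGTG in 1.67% against 7.15%. All motifs were searched on both strands, and windows of 1 gene or of a head-to-head pair share bases, so these shares describe the letters only.

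The type VI collagens, which form beaded filaments around cells, had 5 measured genes, and 0 passed in any comparison. Col6a2 came nearest, with 0.36 ± 0.14 for refeeding in LG2KO livers (adjusted p = 0.162) and 0.23 ± 0.14 in control livers (adjusted p = 0.47). In refed livers all 5 genes had positive LG2KO minus control values, where 55.9% of all genes did, and their median was 0.22. Without the 2 arrays that stand apart the median was 0.09. Col6a1 was at 0.26 ± 0.14 (adjusted p = 0.632), Col6a2 at 0.26 ± 0.14 (adjusted p = 0.626) and Col6a3 at 0.17 ± 0.15 (adjusted p = 0.801).

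The multiplexins are collagens of basement membrane zones whose chains carry long interruptions, and the 2 genes went opposite ways with refeeding in control livers. Col15a1 stood at 6.89, 6.61 and 7.29 in the LG2KO refed pools, against 6.08, 6.12 and 6.49 in the LG2KO fasted pools. It stood at 6.42, 6.59 and 6.81 in the control refed pools, against 5.95, 5.79 and 5.41 in the control fasted pools. In both genotypes refed pools lay above fasted pools with no overlap. In LG2KO livers the fold change was 0.70 ± 0.20 (adjusted p = 0.0538) with all arrays and 0.83 ± 0.20 (adjusted p = 0.0143) without the 2 arrays that stand apart. In control livers Col15a1 rose by 0.89 ± 0.20 on the log2 scale (adjusted p = 0.0169), 1.85-fold. The control call was lost without control refed replicate 2 (0.90, adjusted p = 0.0558), control refed replicate 3 (0.79, adjusted p = 0.0732) or control fasted replicate 3 (0.74, adjusted p = 0.0762). The interaction was -0.20 ± 0.28, and LG2KO minus control averaged over both feeding states was 0.42 ± 0.14 (adjusted p = 0.286).

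Col18a1, the source of the fragment endostatin, stood at 12.004, 12.041 and 12.043 in the LG2KO refed pools, against 11.93, 12.02 and 12.13 in the LG2KO fasted pools. It stood at 11.86, 11.89 and 11.84 in the control refed pools, against 12.17, 12.10 and 12.13 in the control fasted pools. The control refed pools were the lowest of all 12. In LG2KO livers the fold change was 0.01 ± 0.06 (adjusted p = 0.981). In control livers Col18a1 fell by 0.27 ± 0.06 on the log2 scale (adjusted p = 0.017), 1.20-fold, and a second probe set fell by 0.37 (adjusted p = 0.0184). The interaction was 0.27 ± 0.08 (adjusted p = 0.734). The fall in controls lost its call without control refed replicate 3 (-0.26, adjusted p = 0.0669), control fasted replicate 1 (-0.25, adjusted p = 0.0732) or control fasted replicate 3 (-0.27, adjusted p = 0.055). It also lost it without the intensity trend (adjusted p = 0.0797), with only the groups compared (adjusted p = 0.068) and with arrays centred on the brighter genes (-0.28, adjusted p = 0.171).

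Of the other 18 collagens, which include chains of cartilage, skin and transmembrane collagens, 0 passed in any comparison. Their refeeding fold changes lay between -0.11 and 0.16 in LG2KO livers and between -0.20 and 0.21 in control livers. Col14a1, a collagen that binds to fibril surfaces, was at 0.08 ± 0.15 in LG2KO livers (adjusted p = 0.899) and 0.08 ± 0.15 in control livers (adjusted p = 0.895).

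Laminins are trimers of alpha, beta and gamma chains that form the sheet on which basement membrane collagen assembles. None of the 10 genes passed with all 12 arrays in any of the 6 comparisons. For refeeding in control livers 8 of 10 values were positive, with a median of 0.11, where 46.8% of all genes were positive. Lamb1, a beta chain, stood at 6.00, 6.27 and 5.94 in the control refed pools, against 5.70, 5.70 and 5.74 in the control fasted pools, with no overlap. Its fold change was 0.35 ± 0.11 (adjusted p = 0.0875), and 0.39 ± 0.11 (adjusted p = 0.0461) without the 2 arrays that stand apart. With the mean of its probe sets the value was 0.11 (adjusted p = 0.609). Lama1, an alpha chain, was at 0.37 ± 0.18 (adjusted p = 0.34) and at 0.55 ± 0.16 (adjusted p = 0.0493) without them.

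Between genotypes the laminin values were mostly negative in refed livers, in 8 of 10 genes, with a median of -0.13 beside 0.02 for all genes. Lamb3, a beta chain of epithelia, had the lowest value of the members, -0.37 ± 0.29 (adjusted p = 0.768), and stood at 5.63, 5.48 and 5.36 in LG2KO refed pools and 5.04, 6.37 and 6.16 in control refed pools. Control refed replicate 1 was the lowest of these 6 arrays. Without it the value was -0.78 (adjusted p = 0.219), and without control refed replicate 2 it was -0.11 (adjusted p = 0.926). In fasted livers the lowest value was that of Lama2, the alpha chain best known from muscle, -0.25 ± 0.10 (adjusted p = 0.842). Lama2 stood at 5.66, 5.73 and 5.76 in LG2KO fasted pools, against 5.84, 6.10 and 5.97 in control fasted pools, and these did not overlap. Its interaction was 0.39 ± 0.14 (adjusted p = 0.944). Lama3, Lama4, Lama5, Lamb2 and Lamc1 had refed genotype differences of -0.17, -0.14, 0.18, -0.08 and -0.06.

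Of the 16 matrix metalloproteinase genes, Mmp19 rose with refeeding in control livers. Mmp19 encodes a secreted protease that cleaves basement membrane proteins. It stood at 7.72, 7.38 and 7.21 in the LG2KO refed pools, against 6.62, 7.11 and 6.66 in the LG2KO fasted pools. In control livers it stood at 7.67, 7.72 and 7.87 in refed pools, against 6.59, 6.49 and 7.08 in fasted pools. In both genotypes refed and fasted pools did not overlap. The fold change was 0.64 ± 0.19 in LG2KO livers (adjusted p = 0.0597) and 1.03 ± 0.19 in control livers (adjusted p = 0.00485), a 2.05-fold rise, with an interaction of -0.39 ± 0.26 (adjusted p = 0.99). The LG2KO value passed without LG2KO fasted replicate 2 (0.80, adjusted p = 0.04) and without control fasted replicate 3 (0.64, adjusted p = 0.0414). A second probe set passed in both genotypes, at 0.54 in LG2KO livers (adjusted p = 0.0461) and 0.65 in control livers (adjusted p = 0.0176).

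Mmp12, the macrophage elastase, was dim, with a mean at the 7.82 percentile of all genes. The level of Slc2a2 in the LG2KO pools, at the 12.9 to 23.5 percentile, was higher. The deposited values carry no detection calls, so whether Mmp12 was above background is not known, and its differences are given as signal differences only. It stood at 3.80, 3.47 and 2.98 in the LG2KO fasted pools, against 2.56, 2.72 and 3.04 in the control fasted pools, and LG2KO fasted replicate 3 overlapped with the controls. LG2KO minus control was 0.64 ± 0.19 (adjusted p = 0.327). It was 0.86 ± 0.14 (adjusted p = 0.022) without the 2 arrays that stand apart, which removes the overlapping pool, and 0.86 (adjusted p = 0.0614) without LG2KO fasted replicate 3 alone. Refeeding in LG2KO livers gave -0.45 ± 0.19 (adjusted p = 0.206), -0.67 ± 0.14 (adjusted p = 0.00786) without both arrays, and -0.67 (adjusted p = 0.0249) without LG2KO fasted replicate 3. The summed level of 14 macrophage markers was 11960 to 13327 in LG2KO fasted pools and 12137 to 16669 in control fasted pools, and 0 of them passed in the fasted genotype comparison. For refeeding in LG2KO livers 0 of them passed with all arrays. Without both arrays 0 rose and 1 fell, Cd163 (-1.40, adjusted p = 0.00094), or 7.14% beside 17.5% of all genes.

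Other metalloproteinases known from liver did not pass in any comparison. The gelatinase genes Mmp2 and Mmp9 were at 0.27 ± 0.17 (adjusted p = 0.694) and 0.12 ± 0.14 (adjusted p = 0.844) for LG2KO minus control in refed livers. Mmp14, which encodes a membrane-bound activator of Mmp2, was at 0.19 ± 0.12 (adjusted p = 0.682). Mmp7, which is made by epithelia, was at 0.37 ± 0.22 in fasted livers (adjusted p = 1), and the collagenase gene Mmp13 was at -0.06 ± 0.09 (adjusted p = 1). Over all 16 genes the refed genotype differences lay between -0.31 and 0.27, with a median of 0.05.

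Of the 4 inhibitor genes 0 passed with all 12 arrays. Timp3, whose product stays bound to matrix and also inhibits proteases that shed receptors, stood at 6.45, 6.30 and 6.05 in the LG2KO refed pools, against 7.41, 7.31 and 6.30 in the LG2KO fasted pools. LG2KO fasted replicate 3, an array that stands apart, was below the other LG2KO fasted pools and within the range of the refed ones. Refeeding gave -0.74 ± 0.29 with all arrays (adjusted p = 0.175). Without LG2KO fasted replicate 3 the value was -1.09 (adjusted p = 0.017), and without both arrays that stand apart it was -1.09 ± 0.18 (adjusted p = 0.00201). In controls it stood at 7.04, 6.52 and 6.15 in refed pools and 6.98, 6.57 and 7.12 in fasted pools, which overlapped, with -0.32 ± 0.29 (adjusted p = 0.711) and, without the 2 arrays, -0.56 ± 0.18 (adjusted p = 0.0679). All 4 Timp3 probe sets had negative refeeding values in LG2KO livers, between -0.74 and -0.39.

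Timp1, which is induced in injured liver, was at 0.33 ± 0.17 for LG2KO minus control in refed livers (adjusted p = 0.612) and at 0.28 ± 0.17 in fasted livers (adjusted p = 1). It stood at 4.67, 4.81 and 5.06 in LG2KO refed pools and 4.44, 4.76 and 4.35 in control refed pools, which overlapped. Timp2 was at -0.27 ± 0.15 for refeeding in control livers (adjusted p = 0.445) and Timp4 at -0.20 ± 0.14 (adjusted p = 0.569).

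Of 30 listed genes whose products fold, modify or cross-link collagen 26 were measured, and those that rose with refeeding fold or hydroxylate it. In LG2KO livers 5 rose and 0 fell, and in control livers 4 rose and 1 fell, so that 19.2% passed in each, beside 7.05% and 6.46% of all genes. The median over the 26 was 0.14 in LG2KO livers and 0.11 in control livers, beside 0.01 and -0.01 for all genes, and 0 of the measured lysyl oxidase genes (Lox, Loxl1, Loxl3 and Loxl4), which cross-link collagen, passed. Without the 2 arrays that stand apart 6 rose and 1 fell (Mia3) in LG2KO livers and 5 rose and 2 fell (Mia3 and Bmp1) in control livers, or 26.9% in each, beside 17.5% and 12.1% of all genes. Serpinh1, the collagen chaperone HSP47, stood at 7.11, 7.44 and 7.20 in LG2KO refed pools, against 6.33, 6.23 and 6.31 in LG2KO fasted pools. It stood at 6.83, 7.46 and 7.28 in control refed pools, against 6.33, 6.27 and 6.29 in control fasted pools. All refed pools lay above all fasted pools. It rose by 0.96 ± 0.15 in LG2KO livers (adjusted p = 0.00236) and by 0.89 ± 0.15 in control livers (adjusted p = 0.00348).

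P4ha2, a catalytic subunit of prolyl 4-hydroxylase, rose by 0.76 ± 0.13 in LG2KO livers (adjusted p = 0.00295) and by 0.72 ± 0.13 in control livers (adjusted p = 0.00376). Ppib, cyclophilin B, which isomerises prolines in the endoplasmic reticulum, rose by 0.51 ± 0.06 (adjusted p = 0.000423) and 0.42 ± 0.06 (adjusted p = 0.00144). Plod3, a lysyl hydroxylase that also adds sugars to collagen, stood at 8.68, 9.01 and 9.04 in LG2KO refed pools, against 8.17, 8.03 and 8.20 in LG2KO fasted pools, and rose by 0.77 ± 0.12 (adjusted p = 0.00159). In control livers Plod3 was at 0.36 ± 0.12 (adjusted p = 0.0948) with all arrays, and passed at 0.43 (adjusted p = 0.0383) without the 2 arrays that stand apart. P4hb, the disulphide isomerase subunit of prolyl 4-hydroxylase, rose by 0.20 ± 0.04 (adjusted p = 0.0157) and 0.22 ± 0.04 (adjusted p = 0.00861). The LG2KO call of P4hb was lost without LG2KO refed replicate 3 (0.18, adjusted p = 0.0761) or LG2KO fasted replicate 1 (0.17, adjusted p = 0.0859), and both of its calls were lost with arrays centred on the brighter genes and without the intensity trend. Bmp1, a procollagen C-proteinase named here after its value was seen, fell by 0.42 ± 0.08 in control livers (adjusted p = 0.00906). The mean of all Bmp1 probe sets was at -0.13 (adjusted p = 0.478). Between genotypes 0 of the 26 passed in refed or fasted livers.

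**Figure D5:**
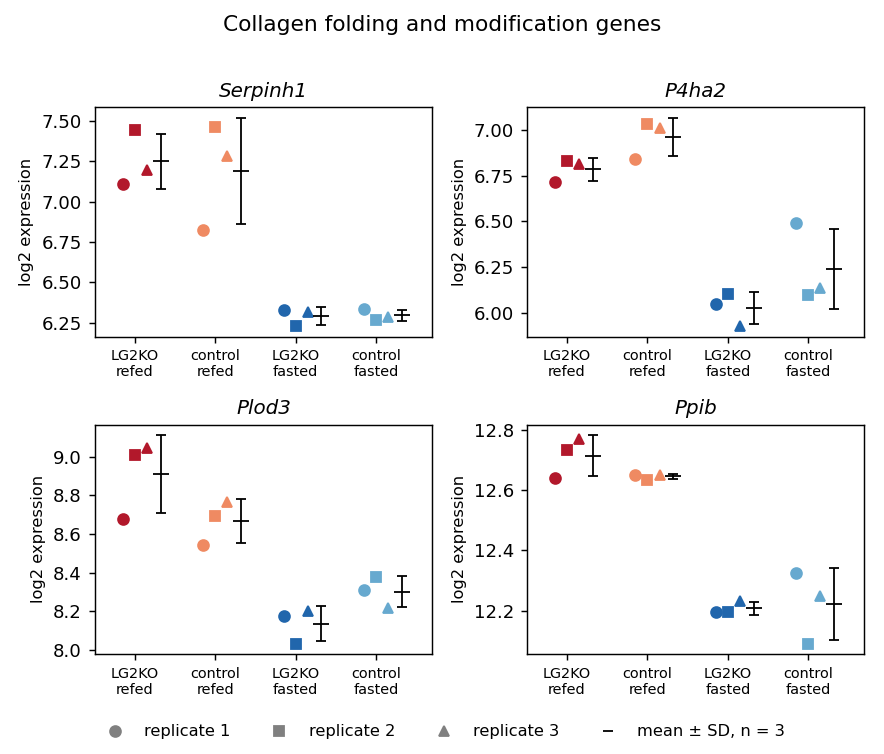
Log2 expression (y axis) of 4 collagen folding and modification genes, for each pool of the 4 groups (x axis), with the mean and SD of 3 pools as black bars. In each panel every refed pool lies above every fasted pool, with Serpinh1 at 6.83 or more in refed pools and at 6.33 or less in fasted pools.

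Of 38 measured genes of other matrix proteins 1, Emilin1, passed for refeeding in LG2KO livers, or 2.63% beside 7.05% of all genes. In control livers 0 passed. Emilin1, a glycoprotein of elastic fibres, rose by 0.81 ± 0.15 in LG2KO livers (adjusted p = 0.00581). In control livers it was at 0.37 ± 0.15 (adjusted p = 0.21), with an interaction of 0.44 ± 0.21 (adjusted p = 0.99). Without the 2 arrays that stand apart 1 rose (Emilin1) and 1 fell (Dcn) in LG2KO livers, or 5.26% beside 17.5%. Of 27 matrix receptor genes 2 passed for refeeding in LG2KO livers, or 7.41% beside 7.05% of all genes, and 0 in control livers. With those 2 arrays left out 3 rose (Itga5, Itga9 and Itgb5) and 3 fell (Itgav, Itgb3 and Cd47) in LG2KO livers, or 22.2% beside 17.5%. In control livers without them 2 rose (Itgb5 and Itga5) and 1 fell (Cd47), or 11.1% beside 12.1%. Itga5, the alpha subunit of the fibronectin receptor, rose by 0.74 ± 0.14 (adjusted p = 0.00763). In control livers Itga5 was at 0.51 ± 0.14 (adjusted p = 0.0543), and at 0.61 (adjusted p = 0.0209) without control refed replicate 1. Itgb3, an integrin beta subunit, fell by 0.64 ± 0.16 (adjusted p = 0.0322), and this call was lost when any 1 of the 6 LG2KO pools other than LG2KO refed replicate 3 was left out, with adjusted p up to 0.132. With the mean of all probe sets, neither Itga5 (0.24, adjusted p = 0.173) nor Itgb3 (-0.36, adjusted p = 0.175) passed in LG2KO livers.

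Of 22 genes of TGF-beta signalling, the pathway best known for inducing matrix genes, 3 passed for refeeding in LG2KO livers and 0 in control livers, or 13.6% and 0%, beside 7.05% and 6.46% of all genes. Without the 2 arrays that stand apart 5 rose (Smad6, Tgfb1, Ski, Eng and Ltbp4) and 4 fell (Tgfbr1, Tgfbr2, Tgfbr3 and Smad4) in LG2KO livers, 40.9% beside 17.5%. In control livers without them 0 rose and 3 fell (Smad4, Tgfbr3 and Tgfbr1), 13.6% beside 12.1%. Smad6, an inhibitor of signalling by the family, stood at 8.02, 7.96 and 7.96 in LG2KO refed pools, against 7.33, 7.27 and 7.35 in LG2KO fasted pools. It rose by 0.66 ± 0.12 (adjusted p = 0.00439) and was at -0.05 ± 0.12 in control livers (adjusted p = 0.911), with an interaction of 0.71 ± 0.16 (adjusted p = 0.409). The ligand gene Tgfb1 stood at 7.60, 7.30 and 7.78 in LG2KO refed pools, against 6.95, 6.92 and 6.97 in LG2KO fasted pools, and rose by 0.61 ± 0.12 (adjusted p = 0.00952). The rise of Tgfb1 was 0.50 without LG2KO refed replicate 3 (adjusted p = 0.0511) and 0.38 with the mean of all probe sets (adjusted p = 0.101). The receptor gene Tgfbr2 stood at 8.99, 8.64 and 8.86 in LG2KO refed pools, against 9.49, 9.60 and 9.37 in LG2KO fasted pools. It stood at 8.79, 8.75 and 8.43 in control refed pools, against 9.03, 8.70 and 8.96 in control fasted pools. LG2KO minus control in fasted livers was 0.59 ± 0.13 (adjusted p = 0.135). Refeeding in control livers gave -0.24 ± 0.13 (adjusted p = 0.435). In LG2KO livers Tgfbr2 fell by 0.65 ± 0.13 (adjusted p = 0.0111). Without LG2KO refed replicate 2 it was at -0.56 (adjusted p = 0.059), without LG2KO fasted replicate 2 at -0.60 (adjusted p = 0.0545), and with the mean of all probe sets at -0.29 (adjusted p = 0.0595).

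Of 26 genes of other matrix proteases and their regulators, Bsg was the 1 that passed between genotypes, in refed livers (3.85% beside 0.379% of all genes). Bsg encodes basigin, a surface glycoprotein known to induce metalloproteinases. It stood at 12.36, 12.22 and 12.23 in LG2KO refed pools, against 11.86, 12.01 and 11.96 in control refed pools, a difference of 0.33 ± 0.06 (adjusted p = 0.045). When any 1 of the 12 arrays was left out this call was lost, with values between 0.28 and 0.36 and adjusted p between 0.0629 and 0.145. It was also lost without the 2 arrays that stand apart (0.29, adjusted p = 0.0831). Refeeding in LG2KO livers raised Bsg by 0.27 ± 0.06 (adjusted p = 0.0171), a call lost without LG2KO refed replicate 1 (0.23, adjusted p = 0.0692) or LG2KO fasted replicate 2 (0.26, adjusted p = 0.0711), and it was at -0.09 ± 0.06 in controls (adjusted p = 0.547). Over the 26 genes 1 rose (Bsg) and 1 fell (Ctsl) with refeeding in LG2KO livers, 7.69% beside 7.05% of all genes. In control livers 0 rose and 1 fell (Ctsl), 3.85% beside 6.46%. Without the 2 arrays that stand apart 1 rose (Bsg) and 3 fell (Ctsl, Reck and Adam9) in LG2KO livers, 15.4% beside 17.5%. In control livers 1 then fell (Ctsl), 3.85% beside 12.1%. Ctsl, the lysosomal protease cathepsin L, changed by -0.50 ± 0.13 with refeeding in LG2KO livers (adjusted p = 0.0368) and by -0.49 ± 0.13 in control livers (adjusted p = 0.0416). Leaving out single arrays took the adjusted p of Ctsl to at most 0.138 in LG2KO livers (without LG2KO fasted replicate 1) and at most 0.179 in control livers (without control fasted replicate 1). With the mean of its probe sets Ctsl was at -0.67 (adjusted p = 0.119) and -0.54 (adjusted p = 0.257).

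Markers of the cells that make matrix were set beside these results. Of 18 stellate cell and fibroblast markers 1 passed (5.56% beside 7.05% of all genes), Pdgfrb, a growth factor receptor of stellate cells, which rose by 0.54 ± 0.12 with refeeding in LG2KO livers (adjusted p = 0.0159). The call of Pdgfrb was lost without LG2KO refed replicate 2 (0.51, adjusted p = 0.0721), LG2KO refed replicate 3 (0.50, adjusted p = 0.075), LG2KO fasted replicate 1 (0.55, adjusted p = 0.053) or LG2KO fasted replicate 2 (0.52, adjusted p = 0.0614), with the mean of its probe sets (0.26, adjusted p = 0.167) and with arrays centred on the brighter genes (0.53, adjusted p = 0.0524). When the 2 arrays that stand apart were left out 2 of these markers rose (Pdgfrb and Des) and 2 fell (Dcn and Pdgfra), or 22.2% beside 17.5%. The summed level of the 18 markers was 6465 to 6644 in LG2KO refed pools, 6252 to 6609 in control refed pools, 6598 to 8070 in LG2KO fasted pools and 6812 to 7638 in control fasted pools. Of 14 endothelial markers 2 passed for refeeding in control livers (14.3% beside 6.46% of all genes) and 0 in LG2KO livers, with Emcn at 0.63 ± 0.16 (adjusted p = 0.0318) and Stab2 at -0.42 ± 0.09 (adjusted p = 0.0173). Without the 2 arrays that stand apart 2 fell in LG2KO livers, Erg and Stab2 (14.3% beside 17.5%), and in control livers 1 rose (Emcn) and 2 fell (Stab2 and Lyve1), 21.4% beside 12.1%. The summed level of the 14 endothelial markers was 3875 to 4923 in LG2KO refed pools, 4190 to 4734 in control refed pools, 4238 to 4966 in LG2KO fasted pools and 4715 to 5064 in control fasted pools. Both endothelial calls were lost when single control arrays were left out, with the highest adjusted p without control fasted replicate 2, at 0.135 for Emcn and 0.0716 for Stab2. Of the 8 hepatocyte markers 1, Hnf4a, fell with refeeding in control livers (12.5% beside 6.46% of all genes) and 0 in LG2KO livers. Hnf4a was at -0.31 ± 0.08 (adjusted p = 0.0399), and its call was kept in 4 of 12 fits that left out 1 array. The call was also lost without the intensity trend, with the mean of its probe sets and with only the groups compared. Without the 2 arrays that stand apart 3 fell in control livers (Cps1, Hnf4a and Fga), 37.5% beside 12.1%. In LG2KO livers 1 then fell (Cps1), 12.5% beside 17.5%. Of 8 mesothelial markers 1, Krt8, rose with refeeding (12.5% beside 7.05% and 6.46% of all genes). It was at 0.51 in LG2KO livers (adjusted p = 0.00312) and 0.31 in control livers (adjusted p = 0.0494). The control call was kept in 3 of 12 fits that left out 1 array. Of 6 adipose markers 1, Cidec, fell (16.7%). It was at -1.42 in LG2KO livers (adjusted p = 0.0265) and -1.64 in control livers (adjusted p = 0.0129). The part of these cells in the matrix results was not tested.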

How the data were processed

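Liver RNA pools were measured on an Affymetrix mouse expression array. The authors deposited log2 values made with RMA, per the submitters' processing notes. RMA corrects background and brings arrays to a common distribution, so only differences relative to the bulk of genes are seen. No software version or genome build is given in the sources used here. Of 45101 probe sets 34958 had 1 gene symbol in the platform's annotation, 932 had several and 9211 had none. The 72 members had 141 probe sets, and 43 members had more than 1.

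A limma 3.58.1 fit (R 4.3.3) used 1 mean per group, an intensity trend in eBayes and left 8 residual degrees of freedom. P-values are two-sided, with Benjamini-Hochberg adjustment over 18194 genes in each of 6 comparisons, and errors of fold changes are standard errors. The code was tested on simulated data. The number of arrays limits the precision.

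Named genes are Slc2a2, every member that passed with all arrays or without the 2 arrays that stand apart, the largest rise and fall per comparison, the 3 brightest members, a set of well-known members, and up to 4 passing genes per list and comparison. List genes named for counts without the 2 arrays were chosen after their values were seen. Mmp15 was not measured under the symbol rule. Members, lists and tests were chosen with earlier results of these data known.

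Alternatives were no intensity trend, robust estimation, array weights, only the brighter genes, the mean of a gene's probe sets, centred arrays, only the groups compared, a replicate block, and arrays left out. Deviations of same-numbered pools from their group means correlated at -0.42 to 0.71 over 18 pairs (median -0.08). For differently numbered pools they correlated at -0.75 to 0.46 over 36 pairs (median 0.04). These wide ranges do not settle whether the numbers pair the pools, and the main fit used no pairing. Plots used matplotlib 3.10.9 (Python 3.11.15).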

Additional observations from a re-analysis of the deposited data

How the results depend on the processing

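With the replicate block as a fixed term the number of members that passed was 3 for refeeding in LG2KO livers and 4 in control livers, and 0 in the other comparisons, the same as without it. The block also ended the calls of Bsg in refed livers (adjusted p = 0.0725), Emcn in control refeeding (adjusted p = 0.057) and Itgb3 in LG2KO refeeding (adjusted p = 0.0502). Leaving out 1 array gave 2 to 6 members for refeeding in LG2KO livers. It gave 6 without LG2KO fasted replicate 3, beside 1507 of all genes, and 5 without control fasted replicate 3, beside 1138. In control livers it gave 2 to 4, with 2 without control refed replicate 3, beside 742 of all genes. It gave 0 to 0 in the genotype comparisons and the interaction. For refeeding in LG2KO livers the count was 8 with array weights, where 3578 of all genes passed, against 1283 in the full fit. It was 5 of 28 members among genes above the median level, where 1634 genes passed of fewer tested, which is not read as an excess of members. Without the 2 arrays that stand apart it was 7, beside 3187 of all genes. Each of these counts held the 3 members of the full fit. Array weights and the removal of the 2 arrays each gave 1 member, Mmp12, in the fasted genotype comparison and in the average over feeding states. Of all genes 203 and 443 passed in these comparisons with array weights, and 93 and 235 with the removal. The cause was not tested. Col27a1 in both genotypes, Col4a1 in LG2KO livers and Mmp19 in control livers passed under all 21 alternatives. Of 336 combinations of a gene and a comparison that were refitted 39 changed side of the threshold under at least 1 alternative, and 0 reversed a call. Dim members such as Mmp12 have the least signal over background.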
